A study of Gallus gallus with 10 samples.

Results

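The pigment cells of the choroid were followed here through 10 genes, TYR, TYRP1, DCT, PMEL, MLANA, OCA2, MITF, SOX10, KIT and EDNRB2, chosen by name from the 24355 genes of the deposited expression table. Each name had 1 row, so 10 of 10 genes were found. The libraries were made from poly(A)-selected RNA of whole choroid, the vascular and pigmented layer behind the retina, from normal chicks (strain given as Domesticus) at day 15 after hatching. One group of 5 choroids was kept with PAPA-NONOate, a compound that releases nitric oxide as it decays, at 1.5 mM and 37 °C under 5% CO2 over 24 hours. The 5 controls are labelled as without it and carry the same incubation text. The comparison asks what nitric oxide does to gene expression in the choroid. Both groups hold the replicate numbers 2, 3, 4, 5 and 8, all treated samples carry the letter R and all controls the letter L, and the labels say neither what the letters mean nor that equal numbers come from 1 bird. Whatever the letters mark cannot be told apart from the treatment, and p-values reflect only how far these samples differ among themselves.

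Melanocytes of the choroid come from the neural crest and make melanin in organelles called melanosomes. Tyrosinase (TYR) starts melanin synthesis, and its relatives TYRP1 and DCT act on later intermediates. PMEL forms the fibrils on which melanin is laid down, MLANA is a melanosomal membrane protein that assists PMEL, and OCA2 is a transport protein of the melanosome membrane. The transcription factor MITF drives these genes and is itself activated by SOX10, a factor of neural crest cells that glia also use. KIT and EDNRB2 are cell surface receptors, for KIT ligand and for endothelins, and in birds EDNRB2 guides the migration of pigment cell precursors.

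Levels were deposited as FPKM, fragment numbers divided by transcript length and by the size of the library, so that genes can be compared per length. The absolute depth is unknown, and from the steps between low values the relative depths of the libraries lay within 1.56-fold of each other. How many fragments lie behind values under 1 FPKM is not known. Across all genes 11357 reached 1 FPKM in at least 5 libraries and were tested with limma on log2(FPKM + 0.5), and 9.34% of them passed a Benjamini-Hochberg adjusted p of 0.05 between the groups, 7.41% as lower and 1.93% as higher. The median tested gene had a log2 fold change of -0.18 (PAPA-NONOate less control), and median-ratio scaling of the libraries removes this shift. PAPA-NONOate replicate 2 had the lowest summed FPKM, 394921 against 470676 to 605493 in the others.

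The main feature of the melanin genes was a very wide spread between choroids. TYR was at 44.2, 5.13, 7.21, 1.13 and 1.61 FPKM in control replicates 2, 3, 4, 5 and 8, and at 15.5, 0.853, 3.38, 0.790 and 0.225 FPKM with PAPA-NONOate in the same order of numbers. TYRP1 was at 189, 17.8, 38.8, 4.61 and 4.34 FPKM in the controls and at 54.6, 2.35, 11.3, 3.85 and 0.752 FPKM in the treated choroids. In both genes replicate 2 was far above the rest in each group, replicate 4 came next, and the groups overlapped broadly. The highest control stood 39.0 times above the lowest in TYR and 43.6 times in TYRP1, and among treated choroids the ratios were 68.6 and 72.6.

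PMEL and MLANA, the structural melanosome genes, had the same order at the top. PMEL was at 165, 16.2, 75.0, 6.48 and 8.48 FPKM in control replicates 2, 3, 4, 5 and 8 and at 84.1, 4.87, 32.6, 5.96 and 1.92 FPKM with PAPA-NONOate. For MLANA the controls were at 22.0, 1.41, 6.64, 0.718 and 2.75 FPKM and the treated choroids at 7.65, 0.588, 2.03, 0.192 and 0.426 FPKM. DCT, the third enzyme of the tyrosinase family, was at 23.6, 2.41, 7.81, 0.646 and 0.930 FPKM in controls and at 13.1, 0.525, 3.64, 1.02 and 0.378 FPKM with PAPA-NONOate. In all 3 genes the groups overlapped, with treated replicate 2 above every control but replicate 2. Summed over TYR, TYRP1, DCT, PMEL and MLANA, the level ran from 13.6 to 444 FPKM in controls, a 32.7-fold range, and from 3.70 to 175 FPKM with PAPA-NONOate, a 47.3-fold range.

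**Figure D1:**
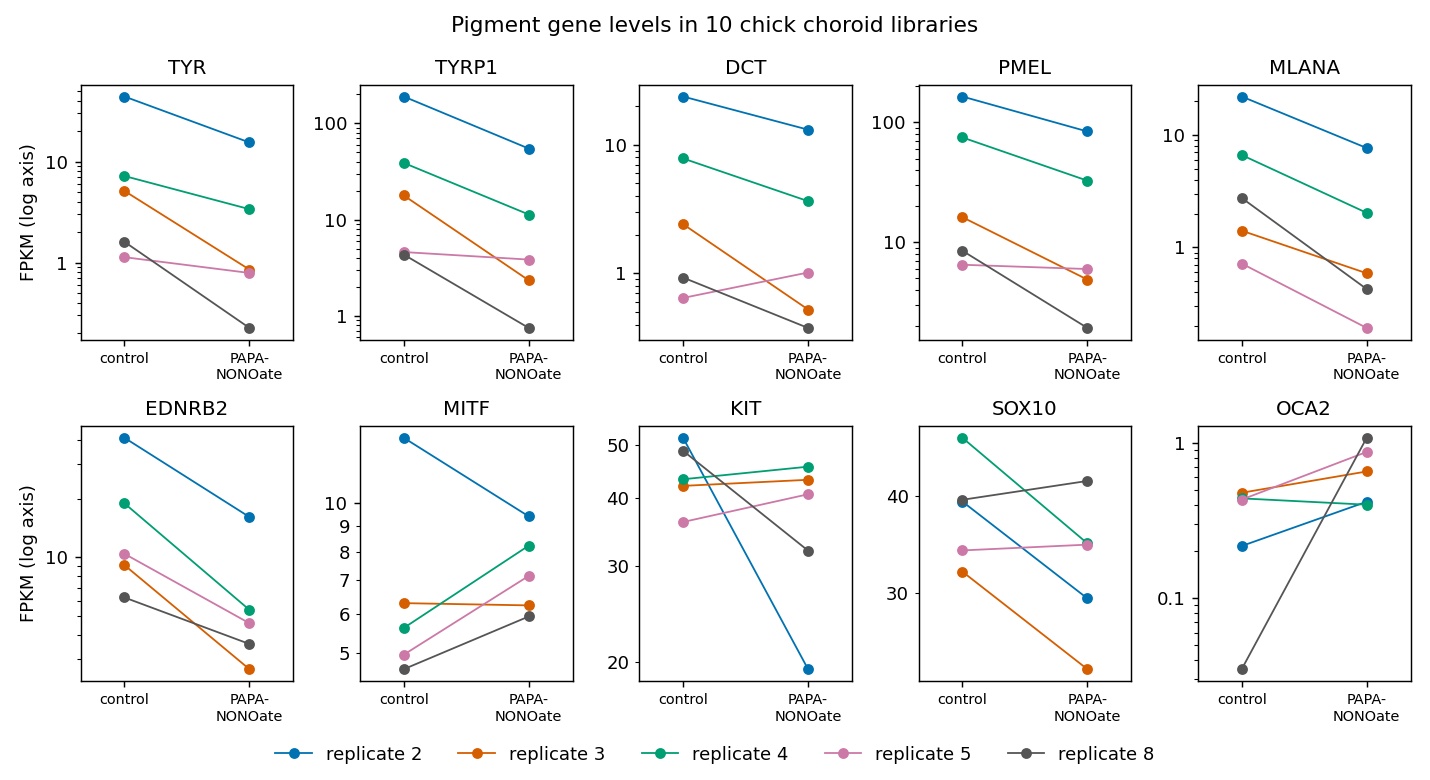
FPKM of each pigment gene (log axes, with a scale of its own for each gene) in the 5 control and the 5 PAPA-NONOate libraries, with lines joining equal replicate numbers. For TYR, TYRP1, PMEL, MLANA and EDNRB2 all 5 lines run downward, with replicate 2 highest in both groups, while those of MITF, KIT, SOX10 and OCA2 run both ways.

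Set against all 11357 tested genes, these were among the most variable of the tissue. The standard deviation of log2 values over the 5 controls was 2.21 for TYRP1, which ranked 6 from the top, 1.99 for PMEL, 1.89 for TYR, 1.84 for DCT and 1.66 for MLANA, which ranked 22. The median over all genes was 0.231. Among the treated choroids the values of these 5 genes ran from 1.44 to 2.10 against a median of 0.283. EDNRB2 came next, at 1.03 in controls and 0.916 with PAPA-NONOate, and 98.8% and 96.7% of genes had a smaller spread. SOX10 (0.220 and 0.298) lay near the median gene in both groups. KIT was below it in controls (0.198) and above it with PAPA-NONOate (0.498, where 83.8% of genes had a smaller spread).

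The order of the libraries was shared between genes and between the groups. TYR, TYRP1, DCT, PMEL, MLANA and EDNRB2, 6 of the 9 tested pigment genes, had replicate 2 highest and replicate 4 second in both groups, an order found in 0.396% of all tested genes. Replicate 2 alone was highest in both groups for these and for MITF, 7 of 9, against 2.51% of all tested genes. The order of replicates 3, 5 and 8 below them differed between genes and groups. Both patterns were chosen after the values of the pigment genes were seen. The shares over all tested genes are thus given for scale and are not a test.

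**Figure D2:**
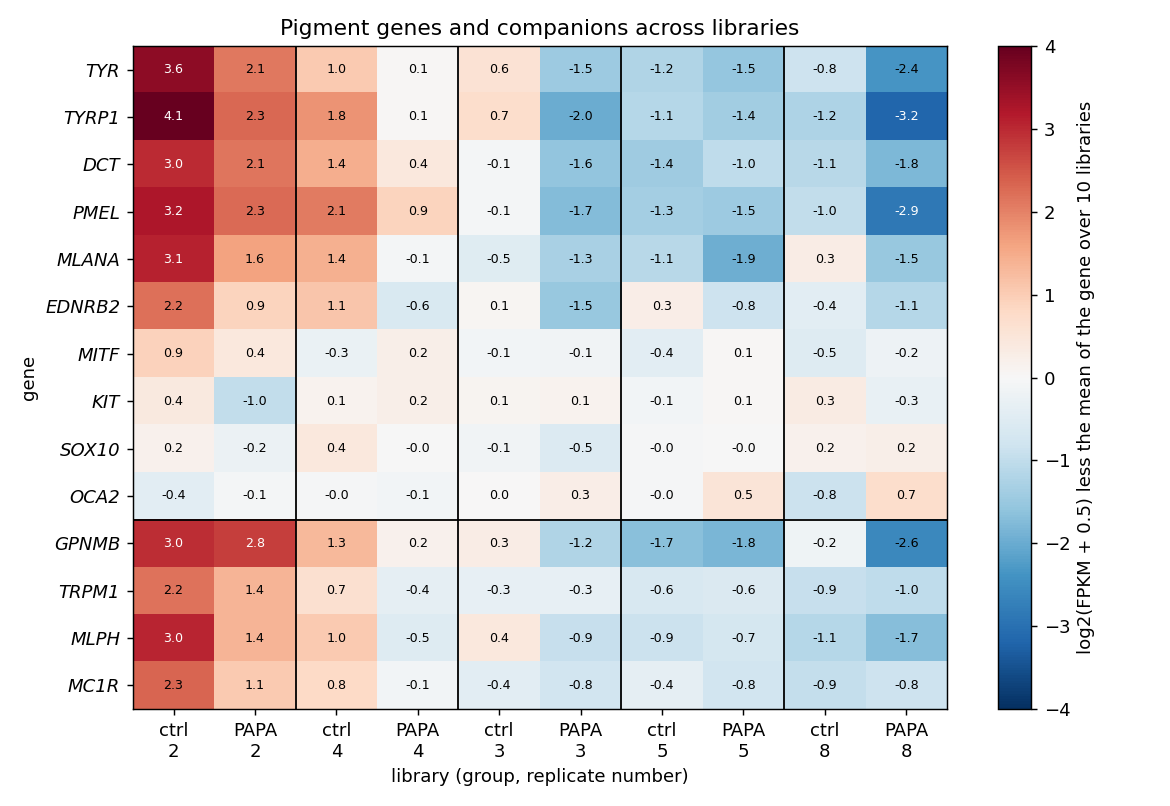
Log2(FPKM + 0.5) of each gene less its own mean over the 10 libraries, with the libraries as columns grouped by replicate number (ctrl, control; PAPA, PAPA-NONOate) and the pigment genes above the line, GPNMB, TRPM1, MLPH and MC1R below it. Both libraries of replicate 2 are high in TYR, TYRP1, DCT, PMEL, MLANA and EDNRB2 and in the 4 genes below the line, and KIT, SOX10 and OCA2 do not share this pattern. GPNMB was picked for its likeness to the pigment profile, and TRPM1, MLPH and MC1R after their values were seen.

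Compared as groups, none of the pigment genes passed the test. Of 9 tested genes 0 passed in limma at an adjusted p of 0.05, where 9.34% of all genes did, and 1 (EDNRB2) had an unadjusted p under 0.05, as 28.1% of all genes did. The log2 fold change of TYRP1 was -1.68 (SE 1.08, 95% interval -4.02 to 0.66, adjusted p = 0.328) and that of TYR -1.28 (SE 0.92, interval -3.27 to 0.71, adjusted p = 0.382). For PMEL it was -1.16 (SE 1.03, adjusted p = 0.484), for MLANA -1.28 (SE 0.79, adjusted p = 0.308) and for DCT -0.73 (SE 0.88, adjusted p = 0.617). These intervals are wide: that of TYRP1 reaches from a large fall to a rise. Without control replicate 2 alone the log2 fold change was -0.87 for TYRP1, -0.55 for TYR, -0.50 for PMEL, -0.67 for MLANA and -0.08 for DCT. Without PAPA-NONOate replicate 2 alone they were larger, at -2.46, -1.97, -1.87, -1.84 and -1.36 in the same order. With replicate 2 left out of both groups they stayed near the values above, at -1.65, -1.23, -1.21, -1.23 and -0.70. In 0 of the 9 genes did the groups stand apart without overlap, which 9.32% of all genes did. The median of the 9 log2 fold changes was -1.16 against -0.18 over all genes, and 5 of the 9 were at -1 or below, as were 3.86% of all tested genes. That share is not at like spread: the log2 values of these 5 had standard deviations of 1.03 to 2.21 in controls, against a median of 0.231. The 5 genes also vary together over the libraries and do not count as separate observations.

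Within equal replicate numbers the melanin genes varied less than between choroids of a group, though mostly still more than other genes. The standard deviation of the 5 within-number log2 differences was 0.894 for TYRP1, 0.703 for DCT, 0.690 for PMEL, 0.648 for TYR and 0.447 for MLANA, against a median of 0.389 over all tested genes. TYRP1 in the treated choroid stood at 28.8%, 13.2%, 29.1%, 83.5% and 17.3% of the control of the same number (2, 3, 4, 5 and 8). TYR stood at 35.1%, 16.6%, 46.9%, 69.8% and 14.0%, and PMEL at 51.0%, 30.1%, 43.5%, 92.1% and 22.6%. All 5 numbers were thus lower with PAPA-NONOate in these genes, with replicate 5 the least changed in unscaled FPKM. Median-ratio scaling would raise the percentages of replicate 2 and lower those of replicate 5. Its divisors were 1.184 and 0.756 in control and treated replicate 2, and 0.960 and 1.093 in control and treated replicate 5. MLANA stood at 34.8%, 41.8%, 30.6%, 26.7% and 15.5% of control, and here replicate 5 was as low as the others. DCT was lower in 4 of 5 numbers and stood at 158% of control in replicate 5. TYR, TYRP1, PMEL, MLANA and EDNRB2, 5 of 9, were lower within all 5 numbers, a pattern of 18.2% of all tested genes, and 0 of 9 were higher within all 5 (4.62% of all genes).

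With the replicate number as a block in limma, which leaves 4 residual degrees of freedom, these 5 of 9 genes passed as lower, against 5.99% of all genes, and 0 as higher (1.88%). In all, 7.86% of the tested genes passed with the block. The fold changes are the same as without the block, with smaller standard errors for these genes. That of TYRP1 was 0.28 (95% interval -2.30 to -1.05, adjusted p = 0.00765), of TYR 0.24 (interval -1.82 to -0.75, adjusted p = 0.0118) and of PMEL 0.23 (interval -1.67 to -0.64, adjusted p = 0.0150). MLANA passed with a standard error of 0.22 (adjusted p = 0.00795), while DCT did not (interval -1.30 to -0.15, adjusted p = 0.113). After median-ratio scaling with the block, where 8.48% of all genes passed as lower, the log2 fold changes were -1.11 for TYR (adjusted p = 0.0174), -0.98 for PMEL (0.0278) and -1.10 for MLANA (0.00999), and TYRP1 passed at 0.0131. PMEL did not pass without replicate 8 (adjusted p = 0.0613) and DCT passed without replicate 5 (adjusted p = 0.0144). Since the labels do not tie equal numbers to a bird, the block rests on the numbers alone.

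**Figure D3:**
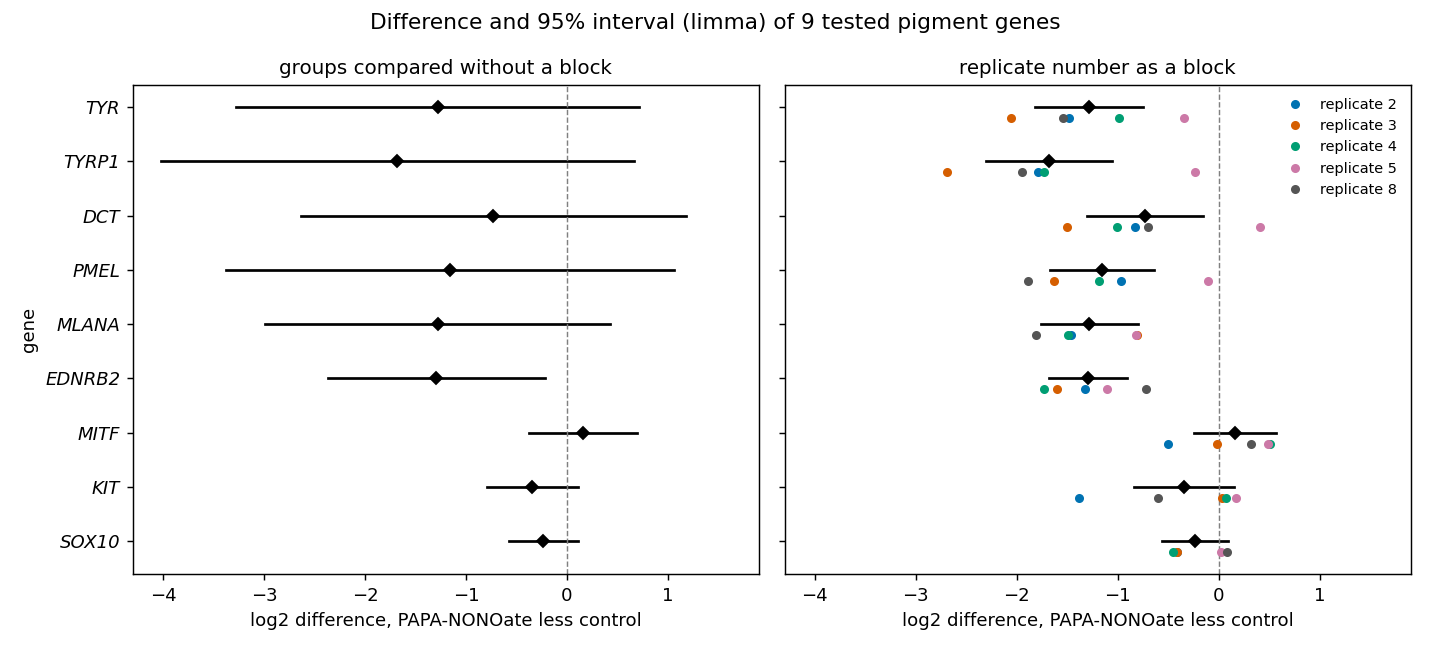
Log2 difference of PAPA-NONOate less control for the 9 tested pigment genes (diamonds) with its 95% interval from limma (bars), without a block on the left and with the replicate number as a block on the right, where coloured points give the difference within each number. On the left every interval but that of EDNRB2 includes 0, and on the right those of TYR, TYRP1, DCT, PMEL, MLANA and EDNRB2 lie below 0.

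The receptor EDNRB2 was lower within all 5 numbers, replicate 5 included. It was at 41.1, 9.14, 19.0, 10.4 and 6.23 FPKM in control replicates 2, 3, 4, 5 and 8 and at 16.1, 2.67, 5.38, 4.60 and 3.60 FPKM with PAPA-NONOate. Within numbers the treated choroid stood at 39.2%, 29.2%, 28.4%, 44.0% and 57.7% of control. The log2 fold change was -1.29 (SE 0.50, 95% interval -2.37 to -0.22, adjusted p = 0.113) without the block and had an SE of 0.18 with it (interval -1.68 to -0.90, adjusted p = 0.00308). Of the pigment genes it was the one that passed without a block in some settings, when the libraries were weighted (adjusted p = 0.0122), without PAPA-NONOate replicate 2 (adjusted p = 0.0343) and without replicate 2 in both groups (adjusted p = 0.0335).

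KIT, the other receptor, did not share this course. It was at 36.1 to 51.5 FPKM in controls (median 43.2) and at 19.4 to 45.6 FPKM with PAPA-NONOate (median 40.6), with the low value in treated replicate 2, the choroid that was highest in melanin genes among the treated. Within numbers KIT was lower in 2 and higher in 3, and its log2 fold change was -0.34 (SE 0.21, 95% interval -0.80 to 0.11, adjusted p = 0.306). Without replicate 2 in both groups the log2 fold change of KIT was -0.08, and after median-ratio scaling of all libraries it was -0.16. Treated replicate 2 was also the library with the lowest summed FPKM.

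The regulators MITF and SOX10 were not lower together with the enzyme genes. MITF was at 13.6, 6.30, 5.62, 4.96 and 4.64 FPKM in control replicates 2, 3, 4, 5 and 8 and at 9.42, 6.24, 8.22, 7.15 and 5.92 FPKM with PAPA-NONOate. Replicate 2 was again highest in both groups, but by 2.92-fold over the lowest control where TYRP1 differed by 43.6-fold. Treated replicates 4, 5 and 8 stood at 146%, 144% and 128% of their controls and replicates 2 and 3 at 69.5% and 99.0%. The log2 fold change was 0.16 (95% interval -0.38 to 0.70, adjusted p = 0.703) without the block and 0.34 with the block and median-ratio scaling (adjusted p = 0.0833). In limma without the block it was 0.41 without control replicate 2 (adjusted p = 0.166) and 0.07 without PAPA-NONOate replicate 2 (0.896). With replicate 2 left out of both groups it was 0.33 (adjusted p = 0.244).

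SOX10 was at 32.0 to 47.6 FPKM in controls and at 23.9 to 41.9 FPKM with PAPA-NONOate. It was lower in 3 of 5 numbers, and its log2 fold change was -0.23 (SE 0.16, 95% interval -0.58 to 0.11, adjusted p = 0.357), close to the shift of the median gene, and of -0.05 after median-ratio scaling. Control replicates 5 and 8, with 4.61 and 4.34 FPKM of TYRP1, held 34.1 and 39.6 FPKM of SOX10, near the 39.4 FPKM of control replicate 2 with its 189 FPKM of TYRP1.

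OCA2 was scarce and went its own way. Its FPKM was 0.217, 0.478, 0.440, 0.432 and 0.0348 in control replicates 2, 3, 4, 5 and 8 and 0.418, 0.656, 0.400, 0.876 and 1.08 with PAPA-NONOate. It was not tested, since 1 library reached 1 FPKM, and it was higher in 4 of 5 numbers. The choroids richest in TYR were not rich in OCA2.

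The melanin genes did not keep 1 ratio to each other. TYRP1 over PMEL was 1.15, 1.10, 0.517, 0.712 and 0.512 in control replicates 2, 3, 4, 5 and 8 and 0.649, 0.482, 0.346, 0.646 and 0.392 with PAPA-NONOate, lower within all 5 numbers. The mean log2 change of this ratio, which no scaling of the libraries alters, was -0.625 ± 0.405 (SD, n = 5 numbers). TYR over PMEL, MLANA over PMEL and EDNRB2 over PMEL were lower in 4 of 5 numbers, and DCT over PMEL was lower in 1 of 5. These ratios were chosen after the values were seen, and the differences were not tested.

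Tested genes with a symbol were compared with the mean profile of TYR, TYRP1, DCT, PMEL, MLANA and OCA2 over the 10 libraries. They were ranked by the root mean square difference of centred log2(FPKM + 0.5) values, closest first. Genes without a symbol were not ranked. The pigment genes were left out of this ranking. Of those the profile was made from, DCT (0.259), TYR (0.404) and MLANA (0.497) lay closer than any gene in it. PMEL (0.561) and TYRP1 (0.722) did not, and OCA2 was not among the tested genes. In the ranking GPNMB, a melanosomal and macrophage glycoprotein related to PMEL, came first at 0.550 log2 units, where the median tested gene was at 1.45. It was at 210, 32.6, 65.7, 7.95 and 23.2 FPKM in control replicates 2, 3, 4, 5 and 8 and at 184, 11.1, 29.7, 7.02 and 3.98 FPKM with PAPA-NONOate. GPNMB was thus lower within all 5 numbers in unscaled FPKM, but in replicate 2 the treated choroid was near its control (log2 fold change -1.08, adjusted p = 0.490, and 0.0504 with the block). Median-ratio scaling, with divisors of 1.184 and 0.756 in control and treated replicate 2, puts the treated value above the control there. The others, in order, were IQGAP3 (0.608), EPHX4 (0.663), GSTO2 (0.698), the tubulin gene TUBB3 (0.705), C2orf88 (0.870), CRP (0.901) and APCDD1 (0.918). Among these 8, EPHX4 (log2 fold change -1.12, adjusted p = 0.0339) and CRP (-1.85, adjusted p = 0.00540) passed with the block, where 7.86% of all tested genes did. None of the 8 passed without it, where 9.34% of all tested genes did. The 8 were picked for likeness to a profile that was itself lower with PAPA-NONOate within each replicate number. Their falls thus follow in part from how they were picked and are no separate evidence. EDNRB2, which was not used for the profile, stood at 0.651, MITF at 1.16, SOX10 at 1.40 and KIT at 1.49. Over all 11357 tested genes, with pigment genes and genes without a symbol included, these distances ranked 7, 51, 2516 and 7406 in the same order.

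Among other genes of the melanosome, most of the scarce ones listed were highest in replicate 2. Of 10 channel, transporter and membrane genes 9 were found and 4 were tested, of which 1 rose (1.93% of all tested genes) and 0 fell (7.41%). TRPM1, a channel of melanocytes, was below the filter with 4.04 FPKM in control replicate 2, 2.11 in treated replicate 2, 1.09 in control replicate 4 and at most 0.301 elsewhere. MC1R, the melanocortin receptor, was at 4.30 and 1.49 FPKM in control and treated replicate 2, and MLPH, which links melanosomes to myosin, at 12.8 and 3.69 FPKM. Among 10 scarce genes of the channel, transport and ligand and receptor lists with a value above 0, 7 (SLC45A2, GPR143, TRPM1, SLC24A4, RAB38, MLPH and MC1R) had replicate 2 highest in both groups. How common this is among all genes below the filter was not counted. Some of these values are under 1 FPKM even in control and treated replicate 2, such as SLC45A2 (0.944 and 0.459) and SLC24A4 (0.464 and 0.230). SLC24A5, an exchanger of the melanosome, was listed at 0 in all 10 libraries. The gene that rose was SLC7A11, the cystine transporter, at 3.83 ± 1.95 against 1.10 ± 0.308 FPKM (SD, n = 5 per group, log2 fold change 1.34, limma adjusted p = 0.0134).

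Most transport and biogenesis genes, which many cells share, did not pass. Of 31 listed genes 24 were found and 22 tested, and 1 fell (7.41% of all tested genes), 0 rose and 21 did not pass. The median log2 fold change of the list was -0.22 against -0.18 over all genes. The gene that fell was BLOC1S2, a subunit of a complex in the making of lysosome-related organelles, at 6.62 ± 0.665 against 10.2 ± 1.88 FPKM (SD, n = 5 per group, log2 fold change -0.58, limma adjusted p = 0.0216), a call lost after median-ratio scaling. RAB27A, the small GTPase that ties melanosomes to the cell edge, was at 26.3 to 45.0 FPKM in controls and at 22.8 to 33.7 FPKM with PAPA-NONOate and did not pass (adjusted p = 0.378).

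Among ligands and receptors of pigment cells 2 of 11 tested genes rose, 0 fell and 9 did not pass, where 1.93% of all tested genes rose. EDN2, an endothelin, rose from 1.58 ± 0.464 to 5.64 ± 1.46 FPKM (SD, n = 5 per group, log2 fold change 1.55, limma adjusted p = 0.00150), with all treated choroids above all controls. PCSK1, a protease that processes prohormones including that of melanocortins, rose from 0.927 ± 0.243 to 2.75 ± 0.359 FPKM (SD, n = 5 per group, log2 fold change 1.20, limma adjusted p = 0.00199). EDN3, the endothelin that acts on melanoblasts, was far more abundant, at 37.6 to 64.8 FPKM in controls and 22.5 to 70.4 FPKM with PAPA-NONOate, and did not pass (log2 fold change -0.26, adjusted p = 0.576). KITLG, the ligand of KIT, was at 1.55 to 3.51 and 1.40 to 3.35 FPKM. POMC was at or near 0 and ASIP, an antagonist of MC1R, was listed at 0 in every library.

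Of 11 tested transcription factors of the melanocyte lineage 0 passed in limma, where 9.34% of all tested genes did. The smallest p-values were those of LEF1, an effector of WNT signalling (log2 fold change -0.42, adjusted p = 0.0508), and of FOXD3, a neural crest factor that restrains MITF (-0.57, adjusted p = 0.103, and 0.0394 with the block). With the block and median-ratio scaling FOXD3 did not pass (adjusted p = 0.159). In that setting 1 gene of the list, SOX9, passed as higher (log2 fold change 1.06, adjusted p = 0.0232), as did 927 of 11357 tested genes, and 0 as lower. SOX9 did not pass with the block alone (adjusted p = 0.0836) or without it (0.166). PAX3, which acts with SOX10 on MITF, was highest in replicate 2 of both groups, at 9.62 and 13.2 FPKM against at most 3.72 FPKM elsewhere, and was higher in the treated library there. Of 8 tested genes reported as MITF targets 3 fell, 0 rose and 5 did not pass, where 7.41% of all tested genes fell. Those that fell were CDK2, a kinase of the cell cycle (log2 fold change -0.998, adjusted p = 0.00295), the receptor gene MET (-0.96, adjusted p = 0.0413) and CTSK, a protease of bone-resorbing cells (-0.99, adjusted p = 0.0423). After median-ratio scaling CDK2 still passed as lower, MET and CTSK did not (adjusted p = 0.0867 and 0.0572), and HIF1A, a factor of the response to low oxygen, passed as higher (0.0229), which gives 1 higher and 1 lower. CDK2 was at 22.3 to 38.5 FPKM in controls and 12.4 to 18.2 FPKM with PAPA-NONOate, a far smaller spread than that of the melanin genes.

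Markers of other cells that share these genes were read in the same libraries. The retinal pigment epithelium, the pigmented layer next to the choroid, also makes melanin. RPE65 was at 0.220 FPKM or less in every library, RLBP1 at 0.288 or less, TTR at 0.318 or less, BEST1 at 1.09 or less, and RGR was listed at 0. RDH5, a retinol dehydrogenase of the same list, was at 0.796 to 4.07 FPKM, and LRAT, which esterifies retinol, at 0.552 to 2.89 FPKM. In control replicate 2, where TYRP1 was at 189 FPKM, RDH5 was at 3.10 and LRAT at 2.27 FPKM. Over the 10 markers of this list, 8 had a mean under 1 FPKM in both groups, and the summed level was 5.36 to 6.07 FPKM in controls and 3.77 to 4.89 FPKM with PAPA-NONOate. Of its 2 tested genes LRAT fell (log2 fold change -0.96, adjusted p = 0.0224), and RDH5 did not pass (adjusted p = 0.777). The part of these cells in the pigment results was not tested. Photoreceptor genes were scarce, with a summed level of 0.339 to 1.23 FPKM in controls and 0.619 to 1.48 FPKM with PAPA-NONOate over 6 found genes, of which 0 reached the test.

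Schwann cell and glial genes, which share SOX10, were present. NGFR, a neurotrophin receptor of these cells, was at 78.7 to 109.5 FPKM in controls and 64.3 to 162 FPKM with PAPA-NONOate and did not pass (adjusted p = 0.876). CDH19, a cadherin of Schwann cell precursors, was at 3.28 to 4.69 FPKM in controls and at most 5.98 FPKM with PAPA-NONOate (adjusted p = 0.835). Of 9 tested genes 0 passed without the block, where 9.34% of all genes did. With the block 1 passed as higher and 1 as lower, against 1.88% and 5.99% of all genes. The lower one was FOXD3, also of this list (log2 fold change -0.57, limma adjusted p = 0.0394 with the block). It did not pass with the block and median-ratio scaling (adjusted p = 0.159). Within all 5 numbers 2 of the 9 were lower and 2 were higher, against 18.2% and 4.62% of all tested genes. The summed level of the list was 187 to 279 FPKM in controls and 158 to 349 FPKM with PAPA-NONOate. Mast cells also carry KIT: of 5 listed genes 2 were found, with HDC at 0.583 FPKM or less and GATA2, which endothelium also uses, not passing (adjusted p = 0.884).

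Macrophages share GPNMB and MITF with pigment cells, and part of their markers fell. Of 8 tested genes 4 fell, 0 rose and 4 did not pass, where 7.41% of all tested genes fell and 1.93% rose. Their summed level was 514 to 891 FPKM in controls and 186 to 497 FPKM with PAPA-NONOate, without overlap in unscaled FPKM. Among single tested genes 9.32% had no overlap. The lowest control sum was that of replicate 2 and the highest treated sum that of replicate 4. Median-ratio scaling, with divisors of 1.184 and 0.976 in these libraries, makes the sums overlap. The count of genes that fell was also 4 after this scaling. The genes that fell were the scavenger receptor MARCO (log2 fold change -1.19, adjusted p = 0.0221), the transcription factor SPI1 (-0.76, adjusted p = 0.00597) and the complement genes C1QA (-1.08, adjusted p = 0.0397) and C1QB (-1.48, adjusted p = 0.0126). CSF1R, the receptor for macrophage growth factors, was at 4.99 to 11.6 FPKM in controls and 2.55 to 8.84 FPKM with PAPA-NONOate (adjusted p = 0.252). Replicate 2, where the melanin genes were highest, was the lowest treated library in 8 of these 8 genes, and the lowest control in 4 of 8 (CD74, CSF1R, MARCO and SPI1). PAPA-NONOate replicate 2 also had the lowest summed FPKM of all libraries (394921). How many of all tested genes were lowest in it was not counted. The part of macrophages in the pigment results was not tested. In tissue RNA of this kind fewer pigment cells and less RNA of a gene per cell cannot be told apart.

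**Figure D4:**
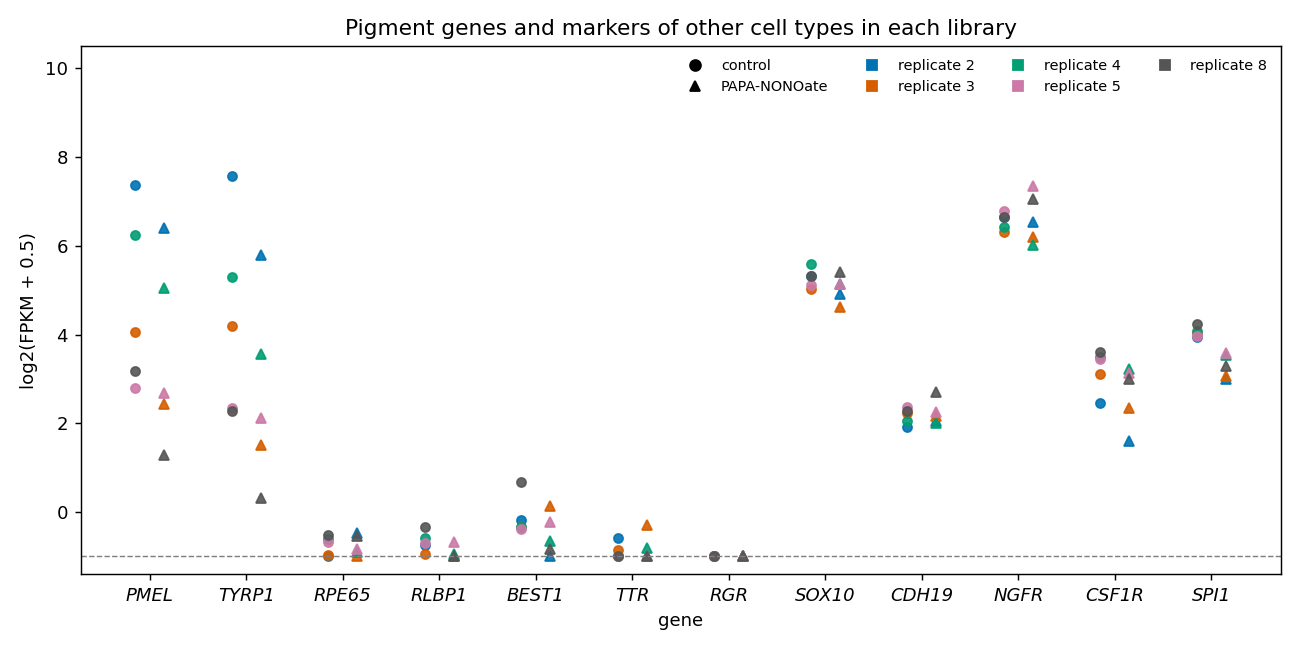
Log2(FPKM + 0.5) of 12 genes in each library, with circles for controls, triangles for PAPA-NONOate, colours for the replicate number and a dashed line at the value of a gene listed at 0. PMEL and TYRP1 spread over a wide range by replicate number, and SOX10, CDH19 and NGFR are present in all libraries. The retinal pigment epithelium markers RPE65, RLBP1, TTR and RGR lie near the line, and BEST1 reaches higher than these. RDH5 and LRAT, the 2 markers of that list that were tested, are not drawn.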

How the data were processed

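The authors deposited FPKM per gene and library in 1 table with Ensembl gene identifiers and common names. The submitters' processing notes name Cufflinks, SAMtools and the genome build GRCg6a. The aligner, the versions and the annotation used by the authors are not stated there. Values of 999999999 (14 values in 10 genes) were treated as missing, and genes with one were not tested. FPKM give no counts, so that no counting intervals are given.

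The test was limma 3.58.1 (R 4.3.3, mean-variance trend) on log2(FPKM + 0.5) for genes with at least 1 FPKM in at least 5 libraries. There were 8 residual and 4.83 prior degrees of freedom, with Benjamini-Hochberg adjustment over 11357 genes, and adjusted p-values of genes come from it. The same script was tested on simulated data. Fold changes on this scale understate those of weakly expressed genes. List names were matched exactly.

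The members, lists and tests were chosen with earlier results of these data known. Named genes were the members, fixed cell markers, the 8 tested genes with a symbol of closest profile, and from each list up to 4 called genes or 2 with the smallest p. Genes named beside them (TRPM1, MC1R, MLPH, RAB27A, PAX3, SOX9, KITLG, POMC, ASIP, SLC24A5, EDN3, NGFR, CDH19, HDC, GATA2, LRAT, RDH5, HIF1A, CD74 and other scarce genes) were chosen after their values were seen. A few genes under this rule are not reported here.

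Other settings were median-ratio scaling, quantile normalization, pseudocounts of 0.1 or 1, a filter at 5 FPKM or none, a block for the replicate number (alone or with median-ratio scaling), library weights, limma without the trend, and leaving out each library or each replicate number. The block with each number left out was added after the data were seen. No gene sequences were used. Figures were drawn with matplotlib 3.10.9.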

Additional observations from a re-analysis of the deposited data

Results flagged for a closer look

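MITF in control replicate 2, at 13.6 FPKM, stood apart from the other 4 controls by its gap to the nearest of them, which was 0.722 of the range of log2(FPKM + 0.5) in the group. It was the 1 case in 20 sets of 5 values (10 genes in 2 groups), and chance alone gives about 1 in 20. The same library was highest among controls in TYR, TYRP1, DCT, PMEL, MLANA, EDNRB2 and KIT, whose gaps did not stand out by this measure.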

How the results depend on the processing

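Without a block 0 pigment genes passed (of 9 tested, 6 with the 5 FPKM filter and 10 without a filter) in every setting except library weights and the omission of PAPA-NONOate replicate 2 or of replicate 2 in both groups, where 1 (EDNRB2) did; over single libraries and numbers left out the count was 0 to 1. With the replicate block it was 5, also with median-ratio scaling, and 4 to 6 with a number left out. No fold change of the 9 tested pigment genes turned its direction, and that of OCA2 was not followed over the settings. The log2 fold change of TYRP1 ran from -2.51 to -0.87 without the block and from -2.04 to -1.43 with it. The labels do not say that equal numbers are paired: over all tested genes the deviations from the group means of equal numbers correlated at r = 0.00348, 0.288, 0.303, -0.0229 and 0.186 (replicates 2, 3, 4, 5 and 8), and treated replicates 2 and 5 correlated better with another number (0.142 and 0.340). Over all genes 1061 passed, 219 higher and 842 lower, and 893 with the replicate block. Scaling changed the split, to 790 higher and 749 lower with median ratios and 733 and 680 with quantile normalization. A filter at 5 FPKM gave 605 calls, library weights 1807 and the block with median-ratio scaling 1890. Leaving out single libraries gave 604 (control replicate 2) to 1813 (PAPA-NONOate replicate 5), a number in both groups 610, 458, 479, 1619 and 424 (numbers 2, 3, 4, 5 and 8), and with the block 864, 589, 499, 1576 and 380. The cause was not tested. Unknown depth limits what values under 1 FPKM can show.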
